A study of Oryzias latipes with 3 samples.

Results

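The regions described here are groups of closely spaced acetylated peaks in the genome of whole medaka embryos (Oryzias latipes). Chromatin immunoprecipitation followed by sequencing had been carried out for acetylation of lysine 27 of histone H3 (H3K27ac) and for trimethylation of lysine 4 (H3K4me3). Members were chosen from the called peaks themselves. An H3K27ac peak had to share no base with any H3K4me3 peak (H3K27ac-only below), and peaks of this kind with facing edges up to 10000 bp apart were stitched into a domain. Domains of 5 or more peaks are called clusters. There were 167 clusters with 1002 member peaks, out of 12938 H3K27ac-only and 24027 H3K27ac peaks in all. The other H3K27ac-only peaks comprised 5653 in domains of 2 to 4 peaks and 6283 single peaks.

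Embryos were at stage 24, had been raised at 26 °C and had their chorion removed by hand. Each sample pooled the chromatin of 600 whole embryos. The labels name no mutation, transgene or treatment. The H3K27ac list of 24027 peaks and the H3K4me3 list of 12884 were each filed with 1 sample. A second H3K27ac sample was not analysed here, and whether it entered the peak calling is unknown. With 1 list per mark there are no replicates to measure spread, so differences between sets of peaks are described without a test. Read depth is unknown, because peak lists carry no read counts. In a pool of whole embryos, a mark present in few cells and a weaker mark in many cells cannot be told apart.

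H3K27ac is laid down by the histone acetyltransferases p300 and CBP and is found at active promoters and enhancers, whereas H3K4me3 is placed mainly at promoters. Acetylated sites that lack H3K4me3 are therefore commonly used as candidate enhancers. In vertebrate cells, long runs of such sites are known near genes that are under the control of many enhancers, such as developmental regulators. Enhancer activity was not measured here, and neither the label enhancer nor a cell type could be checked against the lists. The gene table at hand is of another genome build than the peaks, so positions are given in the build of the lists, counted from 1, and no gene or sequence is assigned to a cluster.

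Most clusters were small. Of the 167, 89 held 5 peaks and 36 held 6, while 20 held 8 or more and 6 held 10 or more. The median cluster spanned 32.2 kb (interquartile range 26.7 to 39.3), with 13.0 kb for the shortest and 90.1 kb for the longest. Together the clusters covered 5.79 Mb, or 0.811% of the 714 Mb that the peaks of both lists span. Inside them member peaks occurred at 173 per Mb, against 18.1 H3K27ac-only peaks per Mb over all chromosomes, a contrast that the rule itself creates. The median span rose with the number of peaks, from 27.9 kb for 5 to 39.9 kb for 7 and 56.3 kb for 9, and was 50.0 kb for the 2 clusters of 10.

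Members stood apart from each other by gaps that filled the allowed range. Of the 835 gaps between neighbouring members, the median was 5058 bp (interquartile range 2888 to 7131) and the largest 9994 bp. Gaps in domains of 2 to 4 peaks, which obey the same limit, had a median of 4703.5 bp. Gaps of up to 1000 bp made up 12.8% of those in clusters (Wilson 95% interval 10.7 to 15.3) and 18.3% of those in the smaller domains (17.1 to 19.7). The median share of a cluster's sequence inside peaks was 29.0% (interquartile range 24.3 to 34.0).

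**Figure D1:**
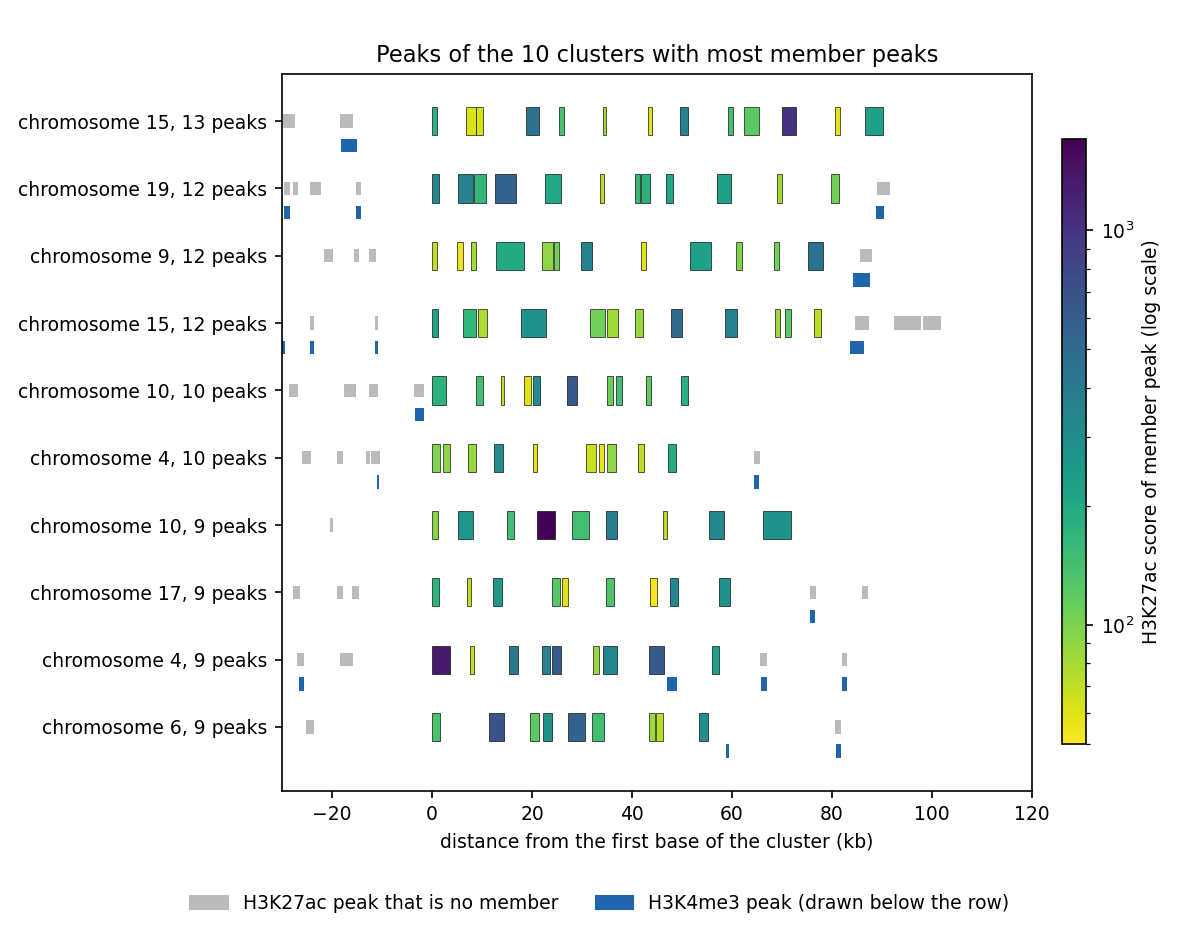
Member peaks of the 10 clusters with most peaks, 1 cluster per row, by distance from the first base of the cluster in kb. Boxes are drawn to scale and coloured by H3K27ac score on a log scale, grey boxes are H3K27ac peaks that are no members, and blue boxes below a row are H3K4me3 peaks. In the top row, 13 peaks spread over 90.1 kb, and the highest score, 1009, lies 70.1 kb from its start.

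The cluster with most members lay at chr15:28703810-28793949. Its 13 peaks were between 693 and 3526 bp wide and were separated by gaps of 94 to 8549 bp. The score in the deposited list is the peak caller's own value for each peak and is used only within its list. What it measures (not given in the sources used here) is left undefined, and a high score below is simply a large value. From the first peak to the last, the scores were 180, 61.3, 61.8, 459, 137, 82.3, 58.3, 357, 144, 124, 1009, 59.8 and 233. High and low scores were thus interspersed, with no steady rise or fall along the cluster. The highest, at chr15:28773886-28776510, was the 11th and lay 69.8 kb from the nearest H3K4me3 peak. Its neighbour on one side scored 124 over a width of 3096 bp, and that on the other 59.8 over 977 bp.

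A single peak far above the rest also stood out elsewhere. The cluster at chr10:10880400-10952271 had 9 peaks with scores of 94.7, 258, 148, 1666, 145, 396, 74.5, 326 and 281. The peak of 1666, at chr10:10901378-10904902, was the highest-scoring of all 1002 members and 3525 bp wide. The last peak of the same cluster was wider, 5625 bp, at a score of 281. The nearest H3K4me3 peak lay 44.9 kb away on one side and 58.6 kb on the other. The cluster at chr1:6229199-6248002 was the most uneven by the ratio of highest to median score, at 15.8. Its first peak of 1284 was joined by 4 others, and the median was 81.5. The ratio was 6.46 in the chromosome 10 cluster and 7.37 in the cluster of 13 peaks above.

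The clusters of 12 and of 10 peaks were more even than those of 13 and 9 peaks above. Their ratios of highest to median score were 3.01 to 4.51, over the median of 2.62 for all clusters. The other clusters of 9 peaks had ratios from 2.45 to 8.02. The 12 peaks at chr19:9563472-9644936 scored between 75.6 and 572, with a median of 190, and 5 of them were 2545 bp wide or more. The 12 peaks at chr9:17571162-17649357 had a median of 103 and a highest score of 454. In the 12 peaks at chr15:27544260-27622056 these values were 115 and 512. The 10 peaks at chr10:23124479-23175662 scored from 59.8 to 644, and the sixth, near the middle of the cluster, was the highest. The 10 peaks at chr4:13589597-13638352 had a median of 88.99 and a highest score of 320.

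Scores within a cluster covered a wide range. The highest score, which by its choice exceeds the median, was a median of 2.62 times the cluster's median (interquartile range 1.94 to 4.30, lowest 1.11) and 5.91 times its lowest score. The median of the highest scores was 372 and that of the lowest scores 60.3, with 50 as the smallest value in the list. Of the variance of log2 score among members, 6.72% lay between clusters and the rest within them. Neighbouring members resembled each other little in score (Spearman's rho 0.08 over 835 neighbour pairs of the same list) and somewhat more in width (rho 0.26). For log2 width, 18.7% of the variance lay between clusters. Among peaks in domains of 2 to 4, the shares between domains were 8.29% for score and 29.8% for width.

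The highest-scoring peak had no fixed place. It was the first or the last peak in 61 of 167 clusters, and 58.3 would be reached if each peak had an equal chance. The widest peak was at an end in 57. Inner and outer members had median scores of 122 and 124, and the inner median was the higher in 66 of 167 clusters. Their median widths were 1519 and 1415 bp, but the inner median was the wider in 83 of 167 clusters. The outer median of a cluster is the mean of its first and last peak. A single large value raises it more than the inner median, which affects both counts. The widest and the highest-scoring peak were the same in 71 clusters, or 42.5% (35.3 to 50.1).

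Member peaks were wider than other H3K27ac-only peaks. Their median width was 1464 bp (interquartile range 1036.5 to 2104), compared with 1127 bp in domains of 2 to 4 and 915 bp for single peaks. All H3K27ac-only peaks outside clusters had a median of 1015.5 bp, a difference of 448.5 bp. The median was wider among members on 24 of 24 chromosomes. Of the members, 397 belonged to the widest quintile of the H3K27ac list, or 39.6% (36.6 to 42.7), against 21.8% of all H3K27ac-only peaks. Above the median width of the list were 728 members, or 72.7% (69.8 to 75.3), against 48.4% of H3K27ac-only peaks. These intervals take peaks as independent, although members of a cluster resembled each other somewhat in width. Width is not fully independent of the rule, since a wide peak shortens the gaps beside it. With peaks stitched by midpoints up to 10 kb apart, which does not use the gap between edges, the difference was 376 bp over 617 members. Width still limits how close midpoints can be and bears on which peaks overlap H3K4me3.

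**Figure D2:**
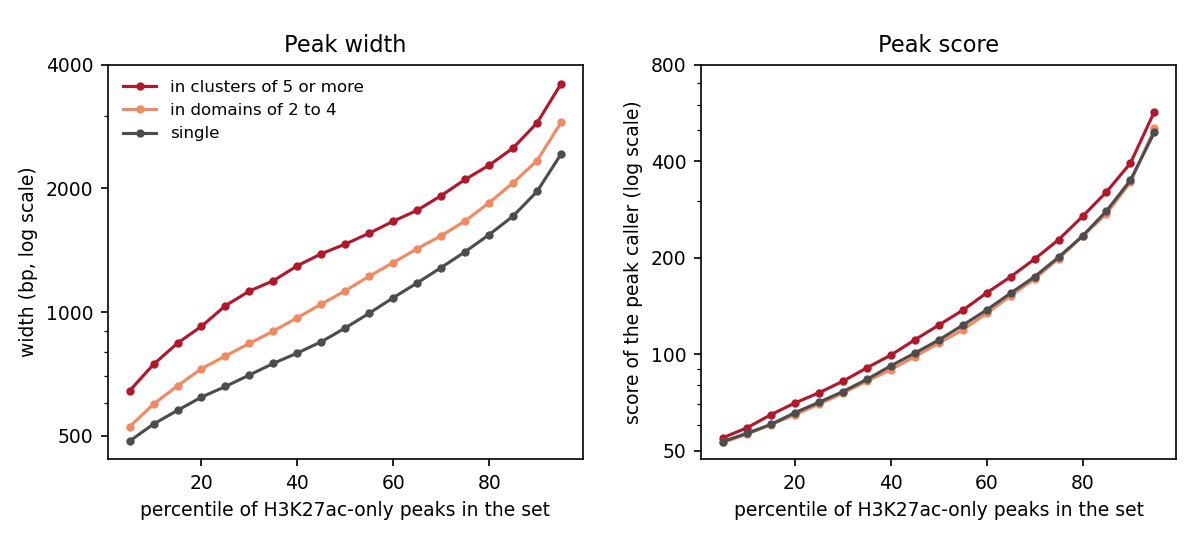
Width in bp (left) and score (right) of H3K27ac-only peaks from the 5th to the 95th percentile of each set, on log axes, for the 1002 members, the 5653 peaks in domains of 2 to 4 and the 6283 single peaks. The width curves are apart over their whole length, with medians of 1464, 1127 and 915 bp, while the score curves lie close together with that of members slightly above, with medians of 123, 108 and 111.

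The score differed far less than the width. Members had a median score of 123 (interquartile range 75.7 to 228), and the H3K27ac-only peaks outside clusters 109 (70.2 to 199.6). The median was higher among members on 18 of 24 chromosomes. The difference of 13.9 (95% interval 4.32 to 23.4) turned to -14.3 (-39.7 to 11.2) with a stitching gap of 5000 bp, which left 56 members. It was 4.63 (-4.35 to 13.6) with midpoints. These intervals take peaks of the same list and cluster as independent, so they are not a test of the difference. Members scored far below the H3K27ac peaks that overlapped H3K4me3, whose median was 515. A score above the median of the H3K27ac list, 195, was reached by 311 members, or 31.0% (28.3 to 34.0), against 26.1% of H3K27ac-only peaks. In the top quintile were 35 members, or 3.49% (2.52 to 4.82). The share over all H3K27ac-only peaks, 2.51%, was close to the lower bound of that interval. Those 35 peaks lay in 33 clusters.

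At like width, members did not score higher than other H3K27ac-only peaks, except against domains of 2 to 4 in the narrowest class. Among H3K27ac-only peaks over 1575 bp wide, the median score was 204 in clusters (441 peaks), 216 in domains of 2 to 4 and 266 for single peaks. From 1052 to 1575 bp the medians were 117, 126 and 163. From 727 to 1051 bp they were 80.1, 90.7 and 105. At 726 bp or less they were 64.5, 63.2 and 66.2. Seen the other way, at scores of 50 to 70.6 the median member was 925 bp wide and the median single peak 598 bp. At scores over 201 the widths were 2181 and 1595 bp. Width and score were related across members (rho 0.57, 1002 peaks of 1 list) and across single peaks (rho 0.72, 6283 peaks).

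**Figure D3:**
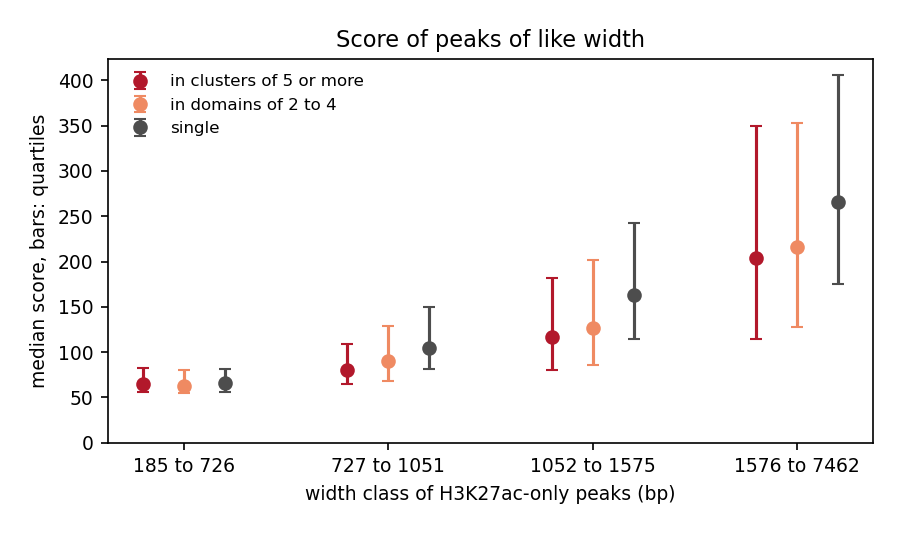
Median score of H3K27ac-only peaks in 4 classes of width in bp, for members of clusters, peaks in domains of 2 to 4 and single peaks; bars span the quartiles. Above 726 bp, members have the lowest median and single peaks the highest, 204 and 266 in the widest class.

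The 10 members of highest score had scores from 974 to 1666. They were 2063 to 5563 bp wide, and all 10 belonged to the widest quintile, as did 39.6% of members. Of the 10, 6 were inner peaks of their cluster, close to the 66.7% among all members. They lay 17.5 to 69.8 kb from H3K4me3; within 10 kb lay 18.5% of all members and 0 of these 10. After the peak of 1666 came those at chr1:4901068-4903849, with 1465, chr4:30630020-30632082, with 1351, and chr4:32852306-32855968, with 1341. The 10 widest members measured 5625 to 7405 bp. Their scores were above the median of the H3K27ac list in 6 of 10, against 31.0% of members, and none was in the top quintile, which held 3.49% of members. The widest, at chr11:10350201-10357605, scored 111. A peak of 6409 bp at chr15:6348920-6355328 scored 52.2, near the bottom of the list, and shared its cluster with another of 6542 bp and a score of 245.

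Clusters also differed in their scores and in how densely they were filled. The highest median score, 443, belonged to the 5 peaks at chr22:20737223-20770588, where the lowest score was 214. It was followed by clusters at chr11:27936080-27970014 (370), chr4:32852306-32909732 (363), chr11:10315648-10371163 (326) and chr5:28845362-28874531 (306). The lowest, 53.4, belonged to chr23:8799928-8818303, where the highest of 5 peaks scored 90.6. The median score of a cluster was above that of all H3K27ac peaks in 33 of 167. Peak number was hardly related to the median score (rho 0.14 over 167 clusters) or to the share of sequence in peaks (rho 0.02).

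The densest cluster, at chr6:13499201-13525576, had 70.6% of its 26.4 kb inside 5 peaks of 2207 to 6469 bp. Its gaps were between 16 and 5356 bp. Next came clusters at chr4:7990500-8015078, with 53.3%, chr22:6781656-6815834, with 52.9%, chr5:28993243-29024683, with 48.0%, and chr16:26895158-26930200, with 47.0% over 8 peaks. The sparsest, at chr5:5864369-5897881, had 12.2% of its 33.5 kb inside 5 peaks of at most 1064 bp. The shortest cluster packed 5 peaks into 13.0 kb at chr6:23172832-23185832.

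H3K4me3 was called inside 23 of the clusters, of which 20 held 1 peak, 2 held 2 and 1 held 3. The 6 peaks at chr3:22082115-22131744 enclosed 3 H3K4me3 peaks, none of them acetylated, between 733 and 1276 bp wide. Of the 27 H3K4me3 peaks inside clusters, 15 overlapped an H3K27ac peak, or 55.6% (37.3 to 72.4), against 85.9% of all H3K4me3 peaks. The rule shapes this share, since an H3K27ac peak at H3K4me3 is left out of the stitching and the stretch it leaves must still be bridged. Their median score was 557, and 19 of 27 were below the median of the H3K4me3 list, 1014. The cluster at chr4:32852306-32909732 enclosed one of higher score, at chr4:32899340-32901298, with a score of 1508 and no overlapping H3K27ac peak; a member peak lay 0.618 kb from it. Clusters with and without H3K4me3 inside had medians of score of 116 and 117, and of span, 31.3 and 32.5 kb. The share of clusters without H3K4me3, 86.2% (80.2 to 90.6), was lower than the 93.9% of domains of 2 to 4 (92.9 to 94.8), which are shorter.

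From the edge of a cluster, the nearest H3K4me3 peak was a median of 9.02 kb away (interquartile range 3.94 to 25.8), counting an enclosed peak as 0. For the 144 clusters with none inside, the median was 11.5 kb. Domains of 2 to 4 without H3K4me3 inside had a median of 14.9 kb and single peaks 16.8 kb. An H3K4me3 peak within 10 kb of at least 1 edge was found for 91 clusters, or 54.5% (46.9 to 61.9), and within 10 kb of both edges for 38. In domains of 2 to 4 these shares were 41.6% (39.6 to 43.6) and 11.6% (10.4 to 13.0), and among single peaks 36.9% (35.7 to 38.1) and 5.57% (5.03 to 6.17). A peak enclosed in a domain counts as near both edges, wherever it lies inside, and a single peak can enclose none. The 23 clusters with H3K4me3 inside are therefore in both counts and make up most of the 38. Differences between the sets in these shares thus include enclosed peaks. Clusters far from any H3K4me3 were few: 12 of 167, or 7.19% (4.16 to 12.1), had none inside or within 50 kb of either edge. This held for 16.5% of domains of 2 to 4 (15.03 to 18.03) and 20.5% of single peaks (19.5 to 21.5). The stretch searched includes the span and is thus longest for clusters, and a longer stretch is more likely to hold an H3K4me3 peak.

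Member peaks themselves lay farther from H3K4me3 than the edges of their clusters. Their median distance was 26.3 kb (interquartile range 13.1 to 43.8), compared with 17.4 kb for H3K27ac-only peaks outside. Between 20 and 100 kb lay 58.0% of members (54.9 to 61.0) and 38.6% of the peaks outside (37.8 to 39.5). Members were fewer at both ends of the range: 8.68% of members lay under 5 kb (7.09 to 10.6) against 15.6%, and 2.89% at 100 kb or more (2.02 to 4.13) against 6.82%. Members of a cluster share the H3K4me3 peaks around it, so these intervals, which count peaks singly, are too narrow. A position inside a long stretch of H3K27ac-only peaks adds distance by construction. The cluster farthest from H3K4me3, at chr2:5356596-5379128, was 245 kb away, followed by chr2:22344003-22389199 at 141 kb and chr13:29634698-29668142 at 123 kb.

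**Figure D4:**
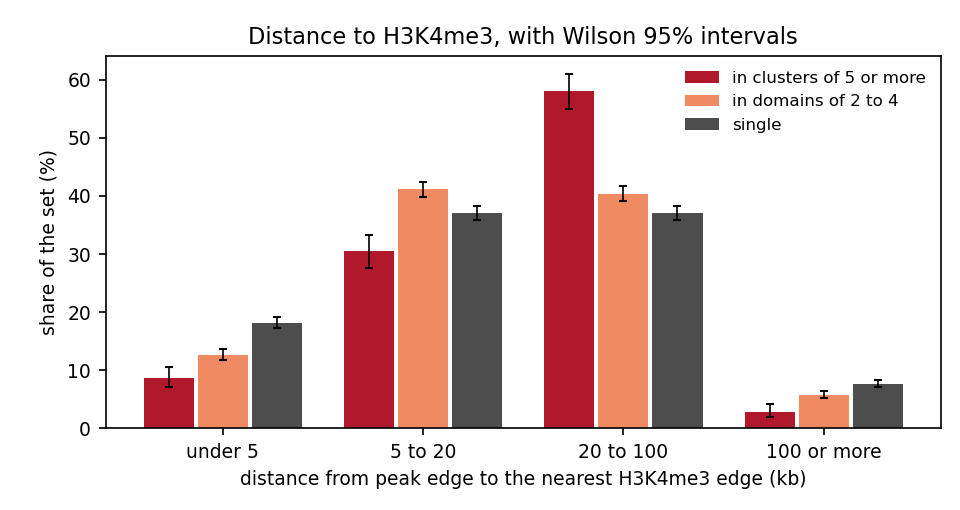
Share of H3K27ac-only peaks, in percent, by distance in kb from the peak edge to the nearest H3K4me3 edge, for members of clusters, peaks in domains of 2 to 4 and single peaks, with Wilson 95% intervals. Members have 58.0% between 20 and 100 kb and 2.89% at 100 kb or more. The intervals take peaks as independent and are too narrow for members, which enter in whole clusters.

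The H3K4me3 peak nearest to a cluster tended to be broad. Its median width was 1546 bp (interquartile range 1063 to 2119), compared with 1293 bp beside domains of 2 to 4, 1194 bp beside single peaks and 1151 bp for all H3K4me3 peaks. In 85 of 167 clusters, or 50.9% (43.4 to 58.4), it belonged to the widest quintile of the H3K4me3 list. Over all 8811 domains and single peaks this share was 28.3%. The 167 clusters had 164 distinct nearest H3K4me3 peaks. The nearest H3K4me3 peak was in the top quintile of score for 43 clusters, or 25.7% (19.7 to 32.9), against 17.1%. It overlapped H3K27ac for 144 of 167 clusters, or 86.2%, and for 84.5% of single peaks. Of the 10 clusters with most members, 6 had a nearest H3K4me3 peak of the widest quintile; that next to the cluster at chr9:17571162-17649357 measured 3476 bp and lay 6.01 kb away. In number, H3K4me3 peaks beside clusters were close to those beside the other 2 sets. The mean within 50 kb outward of the edges was 2.38, with 2.29 for domains of 2 to 4 and 2.19 for single peaks. The mean hides differences with distance. From 5 to 10 kb outward there were 37.1 H3K4me3 peaks per Mb beside clusters, 28.9 beside domains of 2 to 4 and 27.2 beside single peaks. From 45 to 50 kb these values were 18.6, 21.98 and 21.3. Both distances were picked after the values were seen. Within the full 50 kb, H3K27ac-only peaks averaged 3.30 beside clusters, 2.55 beside domains of 2 to 4 and 2.04 beside single peaks. The rule sorted these sets by how closely H3K27ac-only peaks lie, so it favours this order.

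When H3K27ac peaks at H3K4me3 were stitched along with the others, 78 of the 167 clusters gained at least 1 such peak and 89 gained none. The cluster at chr15:27544260-27622056 then became part of a run of 17 peaks over 112 kb, of which 2 overlapped H3K4me3. That at chr10:23124479-23175662 grew from 10 to 15 peaks with 1 such peak. That at chr15:28703810-28793949 stayed at 13.

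Clusters were found on all 24 chromosomes, in unequal number. Chromosome 7 held 14, and chromosomes 4, 9 and 22 held 12 each. These 4 chromosomes had 301 of the 1002 members and 2602 of the 12938 H3K27ac-only peaks. Members made up 12.1% of H3K27ac-only peaks on chromosome 22 (9.76 to 14.9) and 12.02% on chromosome 7 (9.70 to 14.8). On chromosome 18 there was 1 cluster, of 8 peaks, and members made up 2.08% (1.06 to 4.06). Members enter in whole clusters, so these intervals, which count peaks singly, are too narrow. Chromosomes 24 and 14 followed with 3.43% and 3.56%. The chromosomes at either end were picked after their values were seen. With a fixed stitching gap, denser peaks are joined more readily. H3K27ac-only peaks numbered 21.3 per Mb on chromosomes 22 and 7 and 12.9 on chromosome 18. Chromosome 6 had the highest density, 22.98 per Mb, and 8.94% members. Whether density accounts for the unequal shares was not tested. The sex chromosome of medaka, chromosome 1, had 7 clusters and 6.79% (5.01 to 9.15), with 7.74% over all chromosomes. Medians of member width ran from 999 bp on chromosome 23 to 1718 bp on chromosome 15.

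**Figure D5:**
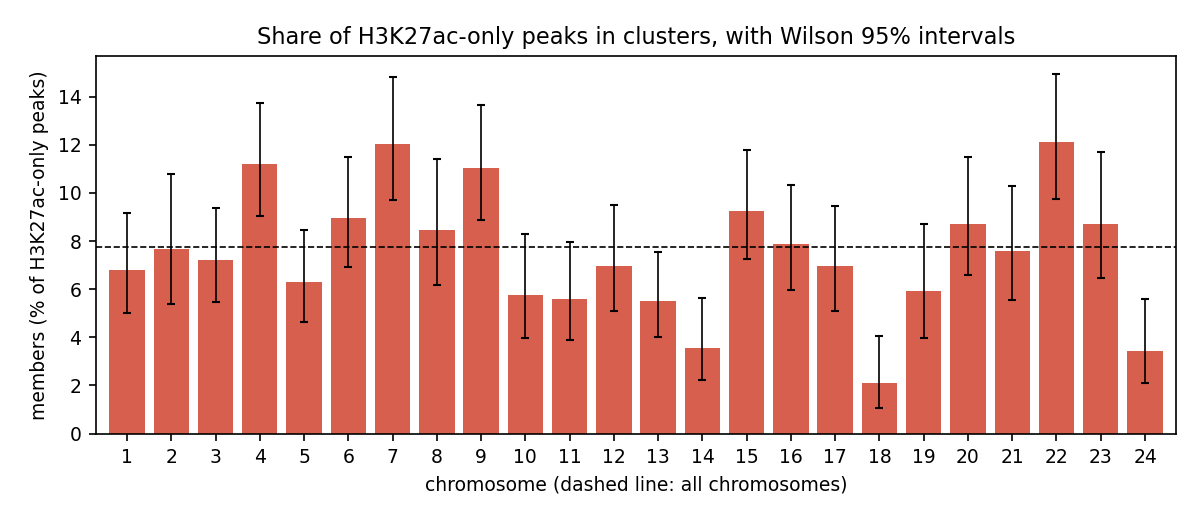
Members as a percentage of the H3K27ac-only peaks of each chromosome, with Wilson 95% intervals that cover counting error only and take peaks as independent. The dashed line is the share over all chromosomes, 7.74%. Chromosomes 22, 7, 4 and 9 lie between 11.04% and 12.1%, and chromosome 18 is lowest at 2.08%.

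The limits of the rule fell within a continuous distribution. Of neighbouring H3K27ac-only peaks, 308 pairs had gaps over 9000 and up to 10000 bp and were joined, and 317 had gaps over 10000 and up to 11000 bp and were not. In 52 clusters at least 1 gap was over 9000 bp. Next to 19 clusters another H3K27ac-only peak lay within 11 kb of an edge. The 199 domains of 4 peaks, just outside the rule, had a median span of 20.2 kb, a median peak score of 116 and a median peak width of 1309.5 bp. The 89 clusters of 5 had medians of 27.9 kb, 116 and 1423 bp.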

How the data were processed

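Chromatin of pooled embryos was precipitated with antibodies against H3K27ac and H3K4me3, and fragments of 200 to 300 bp were kept, per the labels' protocols. The submitters' processing notes name Bowtie, a read aligner. The names of the peaks begin with MACS, a program that calls peaks. The deposited score of each peak is the authors' value. Left undescribed (not given in the sources used here) were its meaning, versions, settings, any control library, whether samples were pooled for calling and the genome build. A total of 62 H3K27ac and 882 H3K4me3 peaks score exactly 3100.

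Overlap meant 1 shared base. Distances ran between facing edges. The members were counted again with bedtools 2.31.1, which gave 167 clusters and 1002 peaks. Shares carry Wilson 95% intervals, which cover counting error only. For shares of member peaks they count peaks singly, although members enter in whole clusters. The 95% intervals of medians and of their differences come from the ranks of single peaks or clusters. They take these as independent and are not a test. Quintiles were taken over the whole list of the mark. Differences are members minus H3K27ac-only peaks outside clusters. The routines were tested on simulated data. Computation used pandas 2.3.3 with NumPy 2.4.6 and SciPy 1.17.1 under Python 3.11.15, and plots used matplotlib 3.10.9.

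The members, measures and alternatives were chosen with earlier results of these data known. Named clusters and peaks are the extremes in peak number, median score, span, share of sequence in peaks, enclosed H3K4me3, distance and neighbourhood, and the 10 strongest and widest members. Alternatives changed the stitching gap, peak number, overlap rule, score threshold, merging and distance measure; the one with midpoints up to 11000 bp apart was chosen after seeing the data.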

Additional observations from a re-analysis of the deposited data

How the results depend on the processing

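Over 15 alternatives and 14 results, 113 of 210 values stayed within the tolerance, 96 moved beyond it and 1 reversed. The tolerance was 1.5 times for counts and the 95% interval of the reported value for medians, differences and shares, which is narrow for the span and wide for the score difference. The median width was larger among members in every alternative, by 45 to 550 bp. The 45 bp, with the top 50% of peaks by score, had a 95% interval of -524 to 614. The difference in score ranged from -14.3 (-39.7 to 11.2) to 104 (-32.5 to 240). With a stitching gap of 5000 bp, 10 clusters of 56 members remained. All overlapped reported ones, which a smaller gap on the same peaks ensures. They had a span of 22692 bp, gap of 3329 bp, filled share of 44.2%, score of 96.2, score difference of -14.3, width of 1599 bp, width difference of 550 bp, 46.4% in the widest and 1.79% in the top score quintile, 13.3 kb to H3K4me3 and 40% of nearest H3K4me3 in the widest quintile. At 7500 bp, 71 clusters held 399 members, with a span of 26376 bp, gap of 4034 bp and filled share of 34.5%. At a gap between 10000 and 20000 bp there were 1548 members, a span of 35616.5 bp, gap of 5602 bp, filled share of 25.2% and 79.0% without H3K4me3. At 20000 bp, 481 clusters held 3317 members, with a span of 51736 bp, gap of 7007 bp, filled share of 18.8%, width of 1346 bp, width difference of 391 bp, 33.4% in the widest quintile, 55.3% without H3K4me3 and 3.17 kb to H3K4me3.

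From 4 peaks on, 366 domains held 1798 peaks, with a span of 24530.5 bp, width of 1402 bp and 35.8% in the widest quintile. From 6 on, 78 held 557, with 40422 bp, 1531 bp and 42.7%, a width difference of 502 bp and 60.3% of nearest H3K4me3 in the widest quintile. The share without H3K4me3 was 91.1% with H3K4me3 extended by 1000 bp, 75.8% with overlap counted from 50% of a peak, and 100% with domains broken at H3K4me3, by construction. Under the 50% rule, peaks that partly overlap H3K4me3 can be members, so their domains hold H3K4me3 by construction. With midpoints up to 10000 bp apart, 108 clusters held 617 members, with a span of 27715 bp, gap of 4545 bp, width of 1406 bp, width difference of 376 bp and 35.2% in the widest quintile. At 11000 bp, chosen after seeing the data, the span was 30822 bp, width 1418 bp, its difference 393 bp and the share 36.1%.

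Merging peaks up to 1000 bp apart gave a span of 33444.5 bp, gap of 5418 bp, score of 137, width of 1551 bp and 44.0% in the widest quintile. At 2000 bp, 104 clusters held 598 members, with 35590.5 bp, 5767 bp, 147, 1594 bp and 47.5%, and a score difference of 31.3. With the top 75% of peaks by score, 33 clusters held 181 members, with a span of 34353 bp, gap of 5591 bp, filled share of 31.5%, score of 217, score difference of 43.2, width of 1739 bp, 55.2% in the widest and 8.29% in the top score quintile, 14.2 kb to H3K4me3 and 90.9% without it. With the top 50%, 3 clusters held 16 members, with 33531 bp, a gap of 5956 bp, score of 408, difference of 104, width of 1752 bp, difference of 45 bp, 68.75% in the widest and 6.25% in the top score quintile, 3.15 kb to H3K4me3, 66.7% without it and 33.3% of nearest H3K4me3 in the widest quintile. A merged peak took the highest score and the outer edges of the peaks it joined, and the score thresholds removed low-scoring peaks before stitching. Higher scores in these settings, and larger widths after merging, follow at least in part from these steps. Apart from shifts described above as by construction, the cause of the others was not tested. For the 10 largest clusters, 64 of 123 peak numbers were as reported, 43 differed by up to 1.5 times and 16 by more, and a further 27 had no cluster left. No paired analysis was possible because there was 1 list of peaks per mark and no test was made. Read depth is unknown, so its effect on which peaks were called is not known either.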

Other observations

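Clusters themselves occurred near each other in places. Of the 143 pairs of neighbouring clusters on a chromosome, 10 were at most 100 kb apart, 43 at most 1000 kb, and the median was 2.36 Mb. The closest pair, at chr13:4307833-4338894 and chr13:4354569-4403970, was separated by 15.7 kb without any peak of H3K4me3. At chr7:10390402-10546033, 3 clusters with 16 members followed each other over 156 kb, and 2 H3K4me3 peaks lay inside them. At chr9:15242758-15478464, 3 clusters with 19 members extended over 236 kb, with no H3K4me3 inside the clusters and 5 H3K4me3 peaks between the second and the last of them. The cluster of 13 peaks on chromosome 15 had another of 5 peaks 27.4 kb before it, and the pair held 18 members over 155 kb. Of the 10 close pairs, 3 had no H3K4me3 peak between them.

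Along the chromosomes, 13.2% of clusters (95% interval 8.86 to 19.1) had their midpoint in the outermost 10% at either end, measured between the first and last peak, and 24.6% (18.6 to 31.6) between 10 and 20%. For H3K27ac-only peaks outside clusters these shares were 18.3% (17.6 to 19.0) and 18.4% (17.8 to 19.2). From 20% inward to the middle the shares of clusters were between 19.8% and 21.6%.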
